A study of Rattus norvegicus with 12 samples.

Results

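The genes described here encode the receptors and transporters of glutamate in the periaqueductal grey, the midbrain grey matter around the aqueduct from which descending control of pain arises. A list of 34 genes was used, of AMPA, NMDA, kainate, metabotropic and delta receptors, vesicular and plasma membrane transporters, glutamate dehydrogenase and 3 proteins that bind AMPA receptors. Members were kept where the level, as TPM (abundance per transcript length, scaled to the library total) summed over the transcripts of the gene, averaged 0.5 TPM or more over the 12 libraries. All 34 of the 34 listed genes passed, of 24540 genes that passed the same limit.

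The libraries were polyA RNA sequencing of periaqueductal grey from 12 male Sprague Dawley rats, 6 morphine-sired (sire exposed to morphine) and 6 saline-sired (sire given saline). The offspring groups carry no other treatment in the labels, and the series title places them in a study of morphine antinociception after chronic paternal morphine. The sources used here give no age, litter, sire identity, or dose and schedule of the sires. The p-values below treat the 12 rats as independent and measure the spread between these libraries.

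Glutamate is the main excitatory transmitter of the brain. Vesicular transporters load it into synaptic vesicles, ionotropic AMPA, NMDA and kainate receptors carry the fast current, metabotropic receptors act through G proteins, and transporters on astrocytes and neurons clear it. In the periaqueductal grey, excitatory projection neurons to the ventromedial medulla are held back by local GABA neurons, and opioids act on this circuit.

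No glutamate gene was called between morphine-sired and saline-sired rats. The level of the 34 genes ran over a wide range, with a mean of 393 TPM for Glud1 and 1.37 TPM for Grm5. The Grm5 value leaves out assembled transcripts, and it was 24.3 TPM with those that share a splice junction. Among them the vesicular transporter Slc17a8, the metabotropic receptor Grm2 and the NMDA receptor subunit Grin3b spread between single rats of both groups, and were high or low in libraries that were high or low in markers of neighbouring nuclei. The levels of 6 members depended on how assembled transcripts were assigned.

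**Figure D1:**
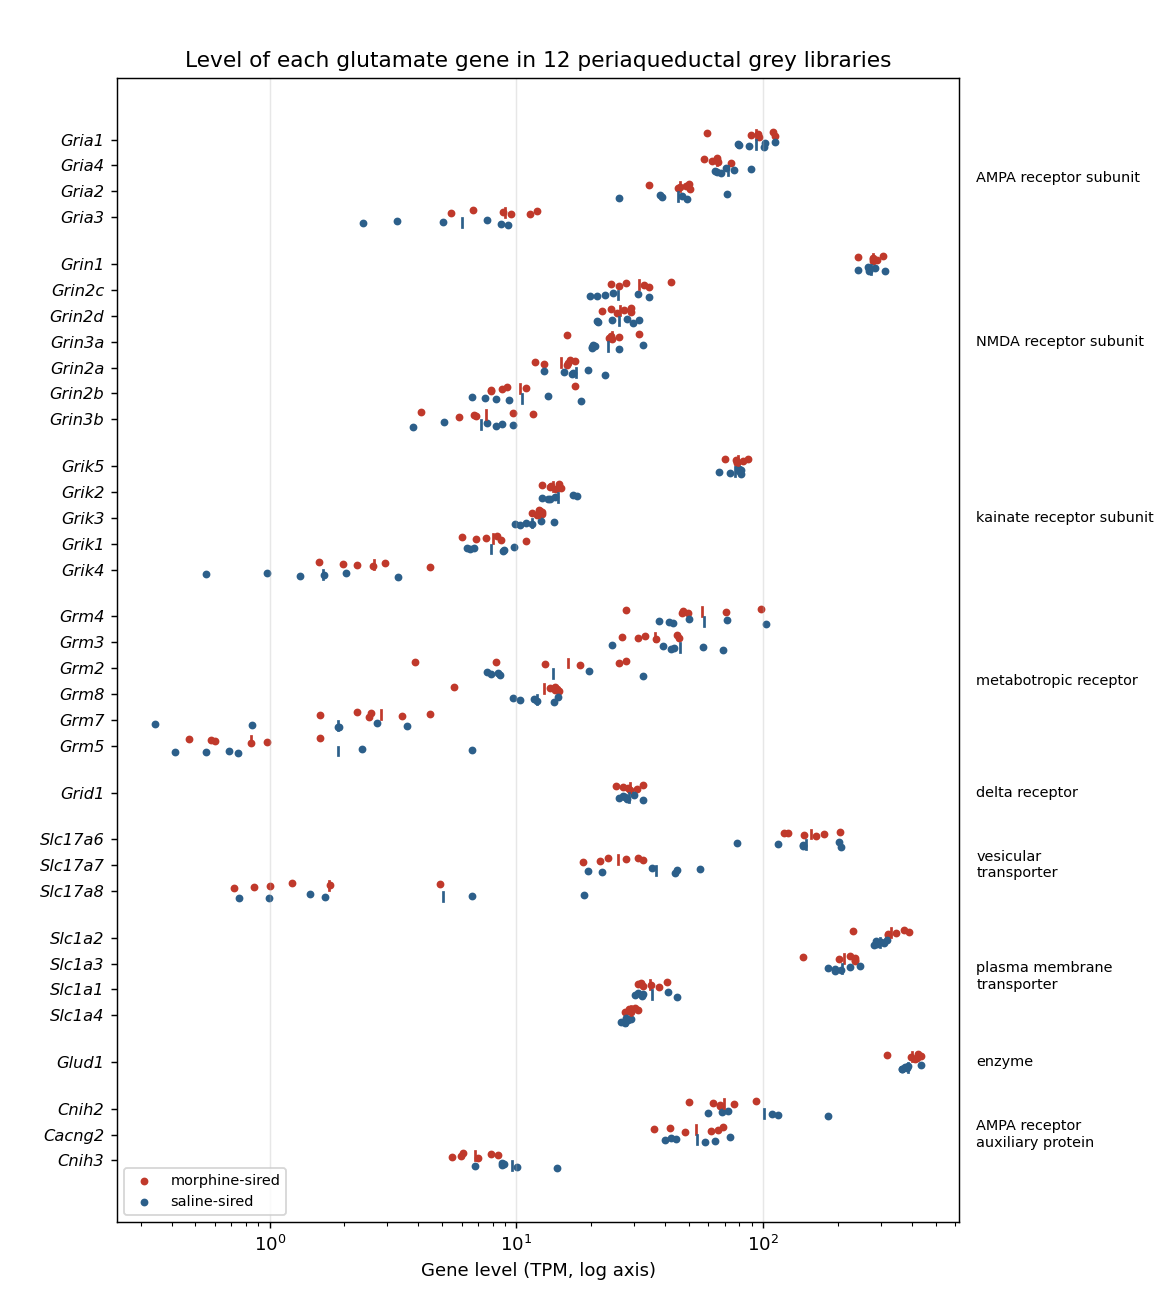
Each point is the level of a gene in 1 library (TPM, log axis), with morphine-sired libraries above saline-sired libraries in each row and a vertical bar at the mean of each group of 6. Genes are grouped by role, and the groups overlap in every row. Slc17a8 and Grm5 have the widest spread in these gene sums. With assembled transcripts that share a splice junction added, the Grm5 coefficient of variation was 20.9%, against 127% here.

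Depth, the total of bases behind the deposited values, was 4.39 to 6.03 gigabases per library (median 5.15). Low members rest on fewer reads per length, and the part of depth in their spread was not tested. Cell and regional markers set some libraries apart. Chat, the enzyme of acetylcholine synthesis and a marker of the oculomotor nuclei, was at 0.0955 to 1.15 TPM in morphine-sired 1, saline-sired 1 and saline-sired 6, and at 17.1 to 36.4 TPM in the other 9 libraries. Tph2, the enzyme of serotonin synthesis and a marker of the raphe, was at 195 TPM in morphine-sired 2, 445 TPM in saline-sired 2 and 196 TPM in saline-sired 3, and lay between 0.45 and 39.1 TPM in the others. Morphine-sired 2 also had the highest Ttr, a choroid plexus gene, at 1756 TPM (0.286 to 413 TPM elsewhere). The part of these differences in the results below was not tested beyond the alternatives named. In bulk tissue, fewer cells of a type and less RNA per cell cannot be told apart.

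Of the 34 members, 0 passed the limma test at an adjusted p under 0.05, against 0 of 24540 genes (0%). Before adjustment, 1 member (2.94%) had a p under 0.05, against 790 genes (3.22%), with 0 members higher in morphine-sired rats (1.5% of genes) and 1 lower (1.72% of genes), and limma-voom on estimated reads gave 0 called, with 2 members and 784 genes (3.19%) under 0.05 before adjustment. The 6 values of one group lay wholly above those of the other in 0 members and in 22 genes (0.0896%). The mean was higher in morphine-sired rats for 21 members and lower for 13 (61.8% higher, against 49.2% of all genes). The median difference was 0.03 over the members and -0.00 over all genes, as log2(TPM + 1), morphine-sired minus saline-sired. The 95% interval of that difference reached 0.34 to each side in the median member, and lay wholly between -0.5 and 0.5 in 19 of 34. Such intervals leave room for differences of moderate size, so a member that missed the threshold is not shown to be equal in the groups.

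**Figure D2:**
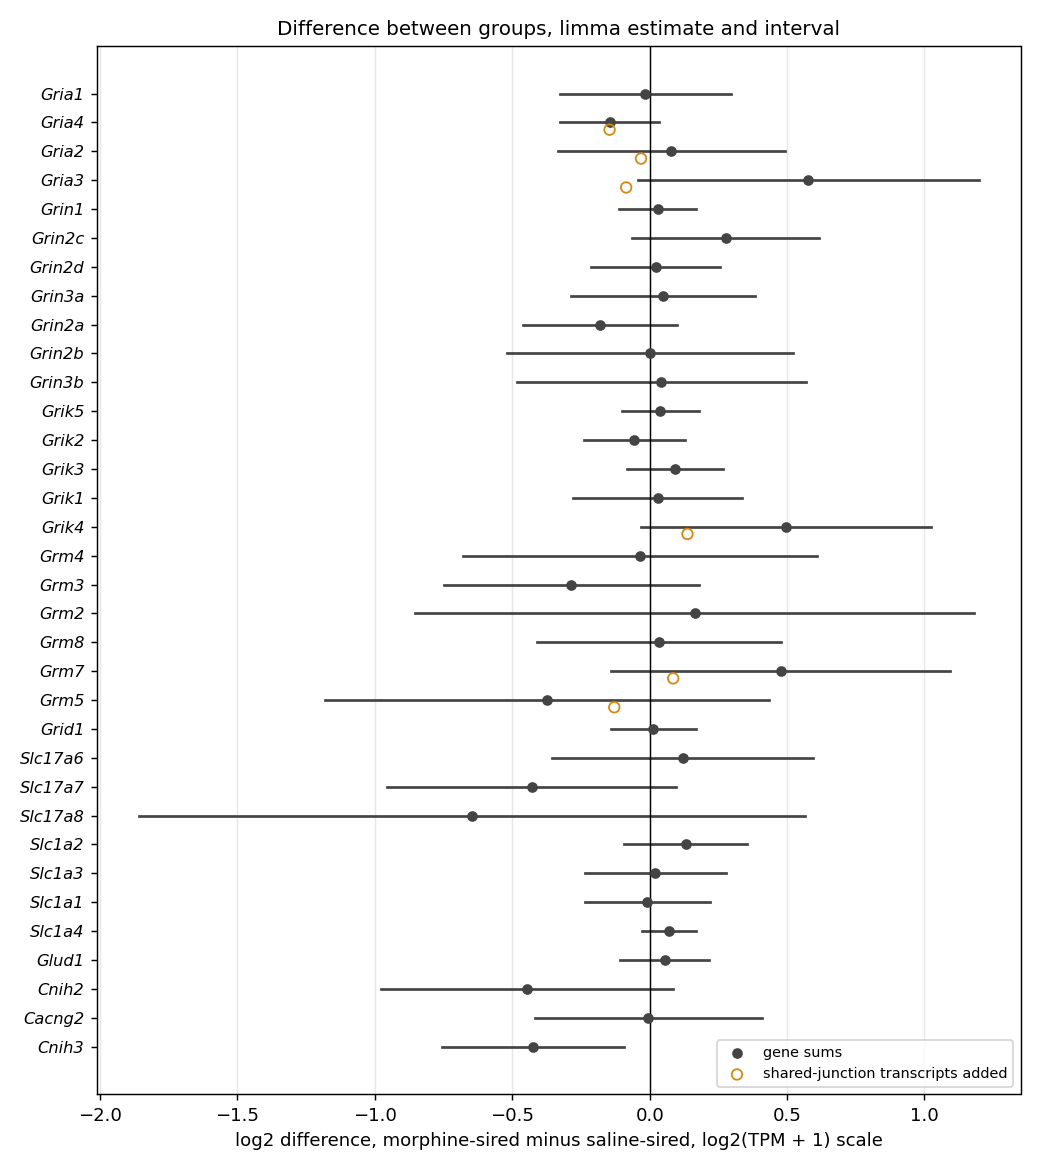
Points are limma estimates of the log2 difference, morphine-sired minus saline-sired, on the log2(TPM + 1) scale, with 95% intervals, for the 34 genes in role order. Open circles give the estimate after assembled transcripts that share a splice junction were added to 6 genes; the Cnih3 interval alone excludes 0 before adjustment.

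AMPA receptors are tetramers of the products of Gria1 to Gria4, and carry most of the fast excitatory current. Gria1 (chr10:42441543-42762820, plus strand) had 109, 59.4, 95.02, 89.4, 112 and 95.9 TPM in morphine-sired 1 to 6, and 111, 102, 79.0, 79.9, 87.6 and 101 TPM in saline-sired 1 to 6. Morphine-sired 2 was the lowest and the groups otherwise covered the same range, with a log2 difference of -0.02 ± 0.14 (SE, limma, unadjusted p = 0.914). Gria4, abundant in the brainstem, averaged 64.8 ± 5.39 TPM in morphine-sired and 72.0 ± 9.33 TPM in saline-sired rats (SD, n = 6 each), and Gria2, the subunit that keeps calcium out of the channel, averaged 45.9 ± 6.03 TPM in morphine-sired and 45.0 ± 15.3 TPM in saline-sired rats. Neither passed the test. Within a library, Gria1 lay above Gria4 in 12 of 12 libraries and Gria4 above Gria2 in 11 of 12. These sums are not alike, as assembled transcripts held 98.1% of Gria1 and were left out of Gria4 and Gria2. With assembled transcripts that share a splice junction added, the counts were 10 and 12 of 12. With annotated transcripts only, Gria1 was the lowest AMPA subunit (1.76 TPM, beside 68.4 TPM for Gria4).

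Gria3 had the smallest p of the AMPA subunits. Its gene sum (chrX:127562660-127829753, plus strand) was 6.69, 12.1, 8.86, 5.41, 11.4 and 9.53 TPM in morphine-sired 1 to 6, against 7.62, 3.28, 5.05, 2.40, 8.65 and 9.25 TPM in saline-sired 1 to 6. The 3 lowest libraries were saline-sired 2, 3 and 4, but the ranges overlapped, and the log2 difference of 0.58 ± 0.29 (SE, limma, unadjusted p = 0.0651) was not called. This sum holds annotated transcripts alone, because the locus carries more than 1 symbol. With assembled transcripts of shared splice junctions added, Gria3 had a mean of 36.4 TPM and a log2 difference of -0.09 ± 0.09, on the other side of 0.

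The same rule left assembled transcripts out of 6 members in loci of several symbols, and it changed their levels and their spread. In each locus the other symbol was a model of 59 to 519 bases that shared no splice junction with the member. All assembled transcripts of these loci shared a junction with the member. The gene sums of Gria3, Grik4, Grm5 and Grm7 therefore left out most of the level found with those transcripts. In Grm5, the receptor that raises intracellular calcium through Gq, the gene sum averaged 1.37 TPM and the sum with shared-junction transcripts 24.3 TPM. Its coefficient of variation over the 12 libraries was 127% in the gene sum and 20.9% with those transcripts. Grik4, a high-affinity kainate subunit, averaged 2.14 TPM in the gene sum and 29.4 TPM with those transcripts, with a coefficient of variation of 50.3% and 13.8%. Grm7, a presynaptic receptor of low glutamate affinity, averaged 2.35 and 16.3 TPM on the same 2 sums. Gria2 (45.5 and 52.2 TPM) and Gria4 (68.4 and 78.4 TPM) moved less. The order within families followed: Grik4 was the lowest kainate subunit in the gene sums and next below Grik5 with those transcripts, and Gria3 held 3.57% of the summed AMPA subunit level in the gene sums and 14.2% with them. With those transcripts the 6 log2 differences lay between -0.15 and 0.14, and 0 were called.

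Each AMPA subunit gene has a pair of neighbouring exons of equal length of which a transcript keeps 1, known as flip and flop, which set how fast the channel closes. In the deposited transcripts a pair of exclusive exons of 115 bases was found in all 4 genes; which is flip was not established here, so they are called upstream and downstream. The shares of Gria2, Gria3 and Gria4 include the shared-junction transcripts, a set chosen after seeing the data. In Gria1 the upstream exon (chr10:42743262-42743376) was carried by 29.0 ± 2.06% of the level in morphine-sired and 28.6 ± 1.33% in saline-sired rats (SD, n = 6 each). In Gria2 the share was 57.9 ± 7.04% in morphine-sired and 55.4 ± 3.37% in saline-sired rats. In Gria3, with libraries between 39.9% and 82.4%, it was 62.3 ± 14.7% in morphine-sired and 54.8 ± 19.8% in saline-sired rats. None of these 3 differences passed an exact permutation test over 924 assignments (two-sided p = 0.706, 0.45 and 0.424). In Gria3, 1 assembled transcript was at 0.123 to 0.352 TPM in morphine-sired 2 and 5 and saline-sired 5 and 6. Their shares were 76.6% to 82.4%. In the other libraries that transcript was at 5.15 to 21.0 TPM, with shares of 39.9% to 67.6%. The split of reads between transcripts is an estimate, and its part in these ranges was not tested.

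In Gria4 the upstream exon (chr8:1560131-1560245, minus strand) was carried by 56.2, 60.0, 48.2, 54.0, 65.4 and 67.1% in morphine-sired 1 to 6 and by 46.9, 31.1, 55.9, 40.3, 56.9 and 55.9% in saline-sired 1 to 6. The 3 lowest shares were saline-sired 1, 2 and 4 and the 3 highest morphine-sired 2, 5 and 6, with overlap between. The difference of 10.6 percentage points had an exact permutation p of 0.0649 (two-sided), or 0.26 adjusted over the 4 genes, and was not called. Transcripts with either exon held 45.3% of the Gria4 level with shared-junction transcripts, so the rest of its RNA is outside this share. Gria1 differed from the other 3 genes in its narrow range, 25.9% to 31.4% over the 12 libraries.

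**Figure D3:**
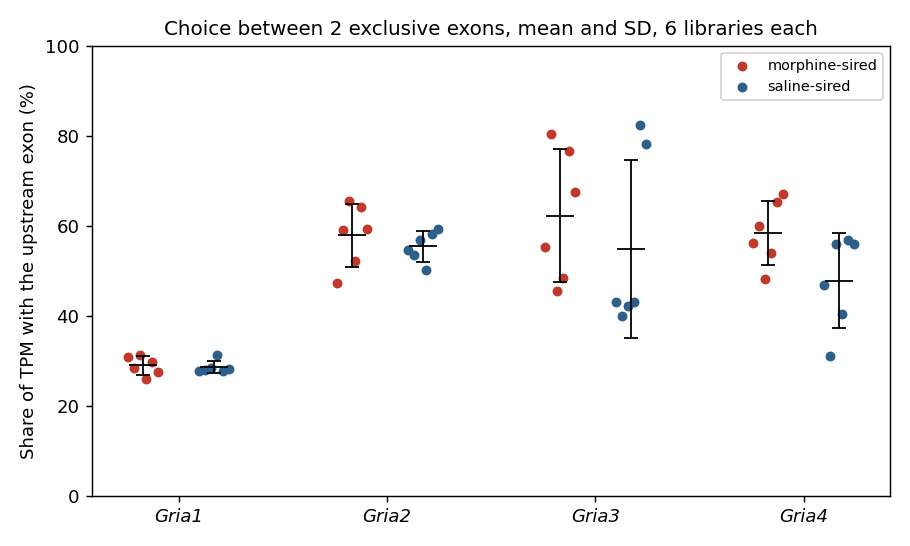
Points give, for each library, the share of a gene's level (of transcripts with either exon, in %) that carries the upstream exon of the exclusive pair, morphine-sired left of saline-sired, with the mean and SD of 6 libraries. Gria1 stays near 29% in both groups, Gria3 spreads from 39.9% to 82.4%, and the Gria4 groups overlap. Shares rest on an estimated split of reads between transcripts.

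NMDA receptors need Grin1, joined by glutamate-binding Grin2 or glycine-binding Grin3 subunits. Grin1 (chr3:2450399-2534663, minus strand) was among the steadiest members, with 305, 241, 278, 279, 290 and 277 TPM in morphine-sired 1 to 6 and 265, 283, 269, 243, 268 and 310 TPM in saline-sired 1 to 6. The groups covered the same range, and the log2 difference was 0.03 ± 0.06 (SE, limma, unadjusted p = 0.667). Of the 4 Grin2 genes, Grin2a and Grin2b are known as the main forms of the adult forebrain. Here Grin2c, known from astrocytes and cerebellar granule cells, held 37.4 ± 3.82% of the summed Grin2 level in morphine-sired and 32.2 ± 4.64% in saline-sired rats. Grin2d, known from the brainstem and interneurons, held 32.0 ± 4.58% in morphine-sired and 32.9 ± 4.08% in saline-sired rats. Grin2a had 20.2% and Grin2b 12.6% over all 12 libraries. Grin2c exceeded Grin2d in 6 of 12 libraries, so these neighbours in the order did not differ beyond their spread.

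Grin2c had the smallest p of the NMDA subunits. It was at 42.2, 27.9, 24.1, 32.9, 26.0 and 34.5 TPM in morphine-sired 1 to 6 and at 24.6, 31.0, 22.9, 19.9, 21.1 and 34.5 TPM in saline-sired 1 to 6. The highest library was morphine-sired 1 and the 3 lowest were saline-sired, with wide overlap (log2 difference 0.28 ± 0.16, limma, unadjusted p = 0.103). Grin2a averaged 15.2 ± 2.17 TPM in morphine-sired and 17.4 ± 3.40 TPM in saline-sired rats. Grin2b averaged 10.3 ± 3.61 TPM in morphine-sired and 10.5 ± 4.46 TPM in saline-sired rats. None of the NMDA subunits passed the test: Grin3a averaged 24.3 ± 5.00 TPM in morphine-sired and 23.4 ± 5.05 TPM in saline-sired rats, and Grin2d 26.2 ± 2.81 TPM in morphine-sired and 26.0 ± 4.31 TPM in saline-sired rats. By library, Grin2b was above 13 TPM only in morphine-sired 1, saline-sired 1 and saline-sired 6, the libraries low in Chat.

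Grin3b, a subunit known from motor neurons of the brainstem and spinal cord, ran the other way. It had 4.11, 9.72, 11.7, 6.71, 6.85 and 5.85 TPM in morphine-sired 1 to 6 and 5.10, 7.58, 8.73, 9.71, 8.24 and 3.80 TPM in saline-sired 1 to 6. The 3 lowest libraries were morphine-sired 1, saline-sired 1 and saline-sired 6, and the highest, morphine-sired 3, also had the highest Chat, at 36.4 TPM. The groups overlapped, and the gene was not called (log2 difference 0.04 ± 0.24, unadjusted p = 0.862).

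Kainate receptors pair pore subunits Grik1 to Grik3 with the high-affinity subunits Grik4 and Grik5, which do not form channels on their own. Grik5 (chr1:81885521-81946714, minus strand) led with 86.9, 70.0, 77.9, 82.5, 78.6 and 78.6 TPM in morphine-sired 1 to 6 and 80.0, 81.5, 79.9, 66.1, 73.3 and 81.6 TPM in saline-sired 1 to 6. These ranges lay on top of each other (log2 difference 0.04 ± 0.06, limma, unadjusted p = 0.565). Grik2 averaged 14.1 ± 0.916 TPM in morphine-sired and 14.8 ± 2.03 TPM in saline-sired rats, Grik3 12.3 ± 0.415 TPM in morphine-sired and 11.5 ± 1.58 TPM in saline-sired rats, and Grik1 8.05 ± 1.71 TPM in morphine-sired and 7.85 ± 1.51 TPM in saline-sired rats. Grik5, Grik2, Grik3 and Grik1 kept that order in 12 of 12 libraries.

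The Grik4 gene sum had the smallest p of the kainate subunits, with 1.58, 2.93, 1.97, 2.25, 2.62 and 4.48 TPM in morphine-sired 1 to 6 and 2.04, 0.972, 0.553, 1.66, 1.33 and 3.30 TPM in saline-sired 1 to 6. The 3 lowest were saline-sired 2, 3 and 5, and the groups overlapped. The log2 difference was 0.50 ± 0.24 (SE, limma, unadjusted p = 0.0637), and 0.14 ± 0.10 with shared-junction transcripts. Without the 3 libraries low in Chat the gene sum gave 0.85 ± 0.22 (unadjusted p = 0.00352), with an adjusted p of 1 over all genes. That sum averaged 2.14 TPM, against 29.4 TPM with shared-junction transcripts. With those transcripts the same libraries had 37.4, 28.0, 28.7, 33.5 and 28.1 TPM in morphine-sired 2 to 6. In saline-sired 2 to 5 they had 24.1, 35.5, 29.1 and 26.7 TPM. The ranges overlapped, and this subset was not fitted on the wider sum.

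The metabotropic receptors hold the most variable receptor genes. Grm2, a Gi-coupled autoreceptor known from thalamic and cortical terminals, had 27.9, 3.86, 8.29, 26.0, 13.1 and 18.1 TPM in morphine-sired 1 to 6 and 19.7, 7.59, 8.43, 7.92, 8.57 and 32.5 TPM in saline-sired 1 to 6. High libraries stood in both groups (morphine-sired 1, 4 and 6, saline-sired 1 and 6). The log2 difference was 0.16 ± 0.47 (SE, limma, unadjusted p = 0.733), while the highest library exceeded the lowest 8.41 times. The same 5 libraries had the 5 highest levels of Gbx2, a thalamic transcription factor chosen after its values were seen: 27.5, 16.5 and 11.2 TPM in morphine-sired 1, 4 and 6, and 14.7 and 28.3 TPM in saline-sired 1 and 6. Gbx2 was lowest, at 0.583 TPM, in morphine-sired 2, where Grm2 was lowest too. Of the 10 thalamic and collicular markers, 10 were measured, and their summed level was 255 to 537 TPM in morphine-sired and 298 to 585 TPM in saline-sired libraries.

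Grm4, a presynaptic receptor, led the family with 97.7, 27.8, 47.4, 70.4, 46.9 and 49.8 TPM in morphine-sired 1 to 6 and 49.9, 71.2, 37.9, 41.4, 43.2 and 102 TPM in saline-sired 1 to 6. Morphine-sired 1 and saline-sired 6 were the highest, morphine-sired 2 the lowest, and the groups overlapped throughout (log2 difference -0.03 ± 0.30, unadjusted p = 0.908). The lead depends on the transcripts counted. Of the Grm4 mean of 57.2 TPM, 16.2 TPM sat on 1 annotated model of 197 bases and 1 exon. In the gene sums Grm4 lay above Grm3 in 9 of 12 libraries. With annotated transcripts only, Grm3 (35.7 TPM) lay above Grm4 (19.8 TPM) in 10 of 12. Grm3, found in astrocytes and neurons, averaged 36.3 ± 7.53 TPM in morphine-sired and 45.8 ± 15.2 TPM in saline-sired rats (log2 difference -0.28 ± 0.21, unadjusted p = 0.206). Grm8, another presynaptic receptor, averaged 12.9 ± 3.61 TPM in morphine-sired and 12.2 ± 2.01 TPM in saline-sired rats, with 5.58 TPM in morphine-sired 2 and 9.73 to 14.9 TPM in the other 11 libraries.

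Grm7 and Grm5 had the 2 lowest gene sums of the 6 metabotropic receptors among the members. Grm7 had 2.26, 2.58, 4.47, 1.60, 3.45 and 2.52 TPM in morphine-sired 1 to 6 and 2.72, 0.344, 0.850, 3.59, 1.91 and 1.89 TPM in saline-sired 1 to 6 (log2 difference 0.48 ± 0.28, limma, unadjusted p = 0.118). Saline-sired 2 and 3 were the lowest. Grm5 had 1.59, 0.471, 0.576, 0.599, 0.974 and 0.837 TPM in morphine-sired 1 to 6 and 2.37, 6.60, 0.683, 0.551, 0.412 and 0.746 TPM in saline-sired 1 to 6 (log2 difference -0.37 ± 0.37, unadjusted p = 0.335). Its high library, saline-sired 2, also had 145 TPM of Car8, a Purkinje cell gene at 7.38 to 27.9 TPM elsewhere. With shared-junction transcripts saline-sired 2 was not high in Grm5 (19.8 TPM, within the range of 12.9 to 31.0 TPM).

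Grid1, the delta receptor that binds cerebellins across the synapse, was steady at 32.5, 25.3, 27.0, 28.4, 30.7 and 28.9 TPM in morphine-sired 1 to 6 and 30.0, 27.1, 27.4, 26.0, 27.9 and 32.5 TPM in saline-sired 1 to 6. The groups covered the same range (log2 difference 0.01 ± 0.07, limma, unadjusted p = 0.857).

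The vesicular transporters mark which neurons release glutamate. Slc17a6, the transporter of most subcortical excitatory neurons, held 84.5 ± 4.75% of the summed level of the 3 transporters in morphine-sired and 76.8 ± 14.1% in saline-sired rats. It was at 204, 126, 121, 176, 146 and 164 TPM in morphine-sired 1 to 6 and at 202, 78.2, 115, 145, 145 and 206 TPM in saline-sired 1 to 6. Its lowest library was saline-sired 2 and its 3 highest were those low in Chat, in both groups (log2 difference 0.12 ± 0.22, limma, unadjusted p = 0.594).

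Slc17a7, the transporter of cortical and precerebellar neurons, had the smallest p of the 3. It was at 23.5, 30.9, 27.9, 32.4, 21.9 and 18.6 TPM in morphine-sired 1 to 6 and at 35.5, 55.5, 44.9, 19.4, 22.1 and 44.1 TPM in saline-sired 1 to 6. In saline-sired rats 4 libraries lay above all morphine-sired ones and the other 2 lay within their range. The highest, saline-sired 2, also had the highest cerebellar marker score (centred mean log2 level), at 3.10, against -0.76 to 0.31 in all other libraries. The part of that score in the Slc17a7 levels was not tested. The log2 difference of -0.43 ± 0.24 (SE, unadjusted p = 0.102) was not called, and it was -0.11 ± 0.21 with the serotonergic and cholinergic marker scores as terms.

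Slc17a8, the transporter of serotonergic neurons and some interneurons, was the most variable of the 34. It had 1.23, 4.89, 1.75, 1.01, 0.864 and 0.716 TPM in morphine-sired 1 to 6 and 1.45, 18.7, 6.58, 1.67, 0.994 and 0.751 TPM in saline-sired 1 to 6. The 3 highest libraries, saline-sired 2, saline-sired 3 and morphine-sired 2, were the 3 with Tph2 above 100 TPM, and the next, morphine-sired 3, was also the next in Tph2 (39.1 TPM). Between the groups the log2 difference was -0.65 ± 0.56 (SE, limma, unadjusted p = 0.269). It was -0.18 without saline-sired 2, -0.19 ± 0.25 with the serotonergic score (the mean log2 level of 10 raphe markers, centred) as a term, and 0.09 ± 0.20 with the cholinergic score added. Of the 10 serotonergic markers all 10 were measured; their summed level was 104 to 647 TPM in morphine-sired and 84.6 to 1330 TPM in saline-sired libraries, and Slc6a4, the serotonin transporter, was at 0 TPM in saline-sired 6.

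**Figure D4:**
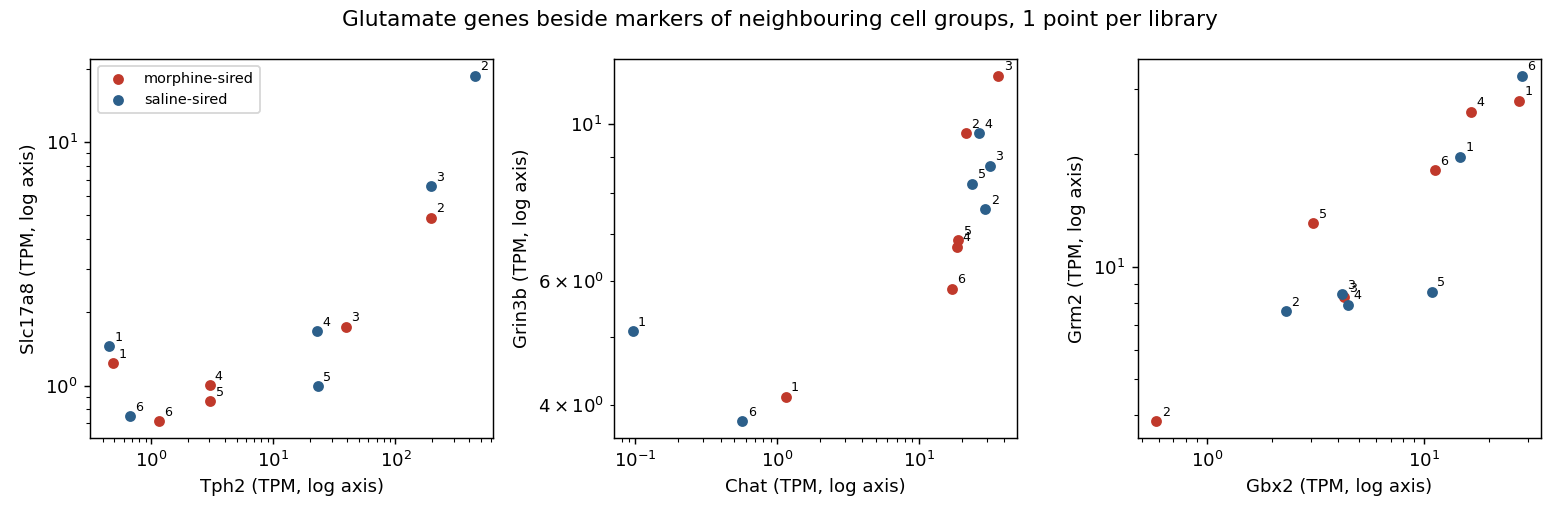
Each point is 1 library, numbered by replicate, with the marker on the x axis and the glutamate gene on the y axis (TPM, log axes). Slc17a8 is highest in the 3 libraries with Tph2 above 100 TPM, Grin3b is lowest in the 3 with Chat under 5 TPM, and Grm2 is lowest where Gbx2 is lowest.

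The plasma membrane transporters end the signal. Slc1a2 and Slc1a3, the transporters of astrocytes, held 53.3% and 35.8% of the summed level of the 4 members of this family over the 12 libraries. Slc1a2 (chr3:92640752-92674703, plus strand) was at 371, 231, 391, 344, 322 and 320 TPM in morphine-sired 1 to 6 and at 317, 287, 301, 308, 288 and 282 TPM in saline-sired 1 to 6. Morphine-sired 2 was the lowest of all, and the other 5 morphine-sired libraries lay above all 6 saline-sired ones. The log2 difference was 0.13 ± 0.10 (SE, limma, unadjusted p = 0.224), and 0.23 ± 0.06 without morphine-sired 2 (unadjusted p = 0.00222, adjusted p = 0.755 over all genes, the lowest of the alternatives). Neither was called. Most of this level (299 of 314 TPM) sits on 1 annotated model of 882 bases and 5 exons, shorter than the assembled models of 6043 and 6492 bases, so the TPM of Slc1a2 leans on that model's length.

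Slc1a3 averaged 213 ± 35.9 TPM in morphine-sired and 208 ± 23.8 TPM in saline-sired rats, and Slc1a1, the neuronal transporter, 34.9 ± 3.81 TPM in morphine-sired and 35.3 ± 6.01 TPM in saline-sired rats. Slc1a4, a carrier of neutral amino acids such as serine, was the steadiest of the 34, at 30.1, 28.5, 31.2, 28.8, 29.0 and 27.6 TPM in morphine-sired 1 to 6 and 27.7, 29.0, 28.2, 27.5, 26.6 and 27.5 TPM in saline-sired 1 to 6. Morphine-sired 1 and 3 lay above every saline-sired library and the groups otherwise overlapped (log2 difference 0.07 ± 0.05, unadjusted p = 0.140). Glud1, glutamate dehydrogenase of the mitochondria, was at 424, 318, 435, 397, 419 and 413 TPM in morphine-sired 1 to 6 and 436, 386, 377, 381, 364 and 365 TPM in saline-sired 1 to 6. The lowest and the highest library each stood apart from their own group, and the groups overlapped (log2 difference 0.05 ± 0.07, unadjusted p = 0.477).

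Of the 3 auxiliary proteins that carry AMPA receptors to the synapse, 0 were called. Cnih3, a cornichon that slows the closing of the channel, had the smallest p of all members. Its level (chr13:99663150-99770625, plus strand) was 6.08, 7.90, 8.43, 5.98, 5.50 and 7.00 TPM in morphine-sired 1 to 6 and 8.75, 8.90, 8.73, 6.78, 10.1 and 14.6 TPM in saline-sired 1 to 6. Of the saline-sired libraries, 5 of 6 lay above all morphine-sired ones, and saline-sired 4 lay within their range. The log2 difference was -0.42 ± 0.15 (SE, limma, unadjusted p = 0.0157, adjusted p = 0.9998), so the gene was not called. It was between -0.51 and -0.31 with each library left out in turn, and -0.28 ± 0.14 (unadjusted p = 0.0862) without the 3 libraries low in Chat.

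Cnih2, the other cornichon, was at 93.9, 50.2, 62.8, 76.4, 67.1 and 67.1 TPM in morphine-sired 1 to 6 and at 72.0, 67.9, 60.0, 108, 114 and 183 TPM in saline-sired 1 to 6. Saline-sired 4, 5 and 6 lay above every morphine-sired library and the other 3 within their range (log2 difference -0.45 ± 0.25, unadjusted p = 0.0931). Cacng2, known as stargazin, averaged 53.6 ± 13.5 TPM in morphine-sired and 53.7 ± 13.6 TPM in saline-sired rats.

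Summed by role, the AMPA subunits averaged 213 ± 27.0 TPM in morphine-sired and 217 ± 29.2 TPM in saline-sired rats, the NMDA subunits 393 ± 32.1 TPM in morphine-sired and 383 ± 35.3 TPM in saline-sired rats, and the kainate subunits 116 ± 6.88 TPM in morphine-sired and 113 ± 9.34 TPM in saline-sired rats. The plasma membrane transporters summed to 607 ± 89.0 TPM in morphine-sired and 569 ± 33.4 TPM in saline-sired rats. The metabotropic receptors summed to 126 ± 39.0 TPM in morphine-sired and 134 ± 43.5 TPM in saline-sired rats, and the vesicular transporters to 184 ± 29.9 TPM in morphine-sired and 190.5 ± 42.9 TPM in saline-sired rats. The AMPA auxiliary proteins summed to 129.99 ± 25.8 TPM in morphine-sired and 164 ± 52.7 TPM in saline-sired rats. Differences of these 7 sums were smaller than the SD within either group, with 2 exceptions. That of the plasma membrane transporters exceeded the saline-sired SD alone, and that of the auxiliary proteins the morphine-sired SD alone. All 7 are totals of the gene sums, which leave out the assembled transcripts of Gria2, Gria3, Gria4, Grik4, Grm5 and Grm7. The AMPA, kainate and metabotropic totals are therefore lower than with shared-junction transcripts.

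Single transcripts were tested in the same way. Their values rest on an estimated split of reads and are not independent of the gene sums. In saline-sired 5, for example, 1 Slc1a3 transcript was at 2.15 TPM while 2 others were at 111 and 92.5 TPM, with a gene sum of 206 TPM. Of the tested member transcripts, 39 were at 0 TPM in at least 1 library. Of 128 member transcripts tested, 0 were called by limma, against 1 of 50419 transcripts in all (0.00198%), and 6 (4.69%) had an unadjusted p under 0.05, against 1902 (3.77%). The smallest p was that of an annotated Gria3 transcript of 16 exons, at 3.52 ± 0.946 TPM in morphine-sired and 2.01 ± 0.751 TPM in saline-sired rats (log2 difference 0.60 ± 0.21, unadjusted p = 0.0134). The second was an assembled Slc1a2 transcript of 2 exons that shares no splice junction with the annotated one, at 40.3, 1.45, 21.9, 5.99, 16.2 and 28.8 TPM in morphine-sired 1 to 6 and 0.0379, 0, 0.569, 27.5, 3.11 and 0.0333 TPM in saline-sired 1 to 6. Of the saline-sired libraries, 4 of 6 were under 1 TPM, while saline-sired 4 lay among the high morphine-sired ones (unadjusted p = 0.0169). Transcripts of Gria2, Cnih3, Grm7 and Grik4 followed, with unadjusted p of 0.0196, 0.0242, 0.0280 and 0.0417 and lower means in morphine-sired rats.

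**Figure D5:**
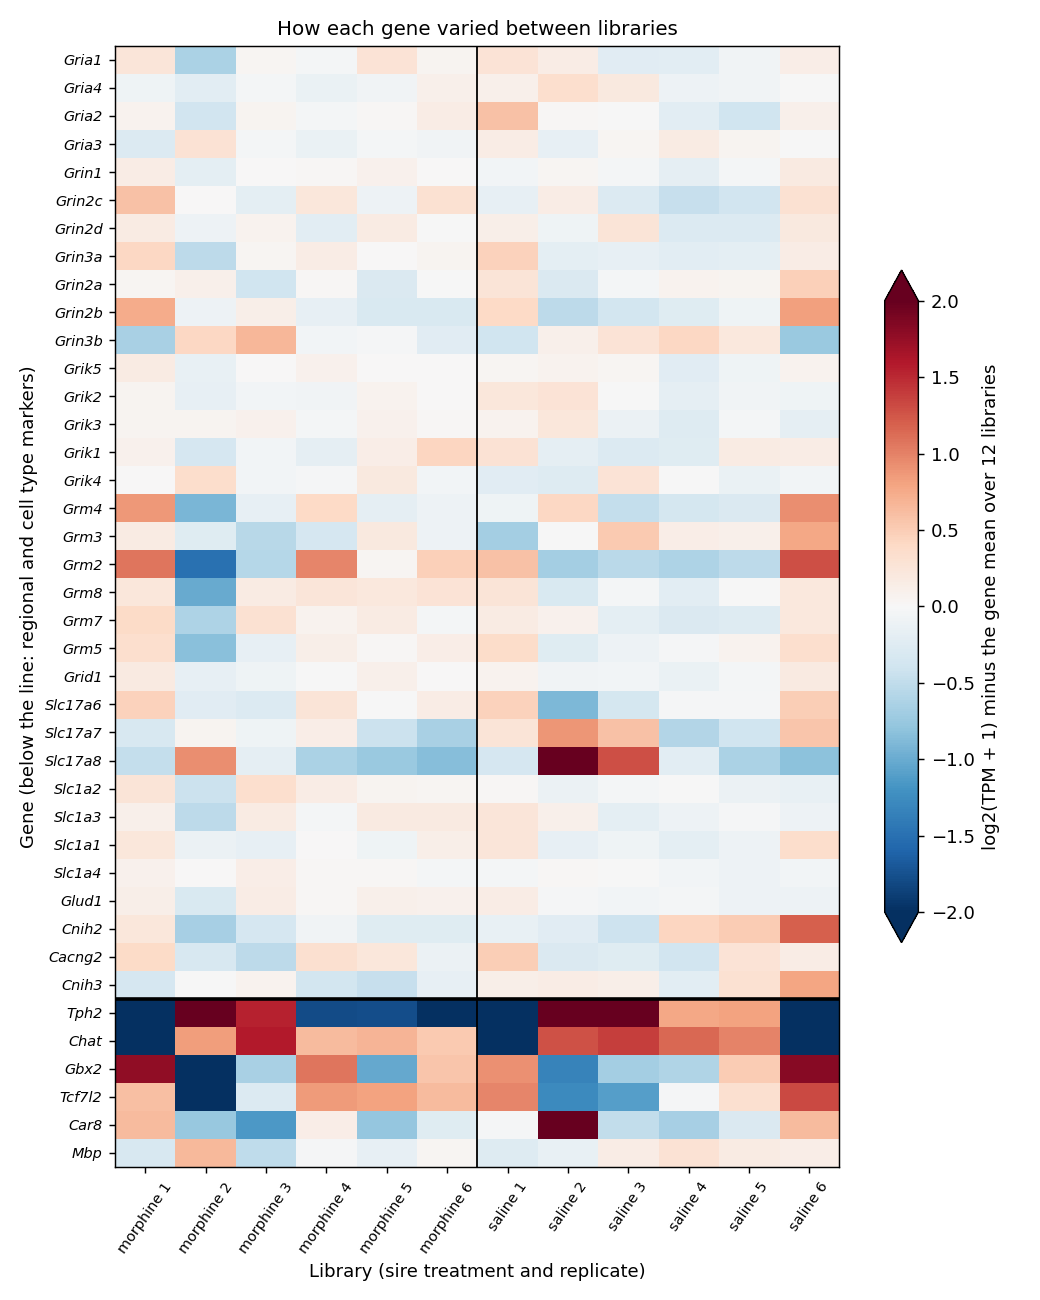
Colour gives log2(TPM + 1) of each gene in each library minus the gene's mean over 12 libraries (clipped at 2 to each side), with morphine-sired libraries left of saline-sired and shared-junction transcripts added for 6 genes. Below the line stand markers of raphe (Tph2), oculomotor (Chat), thalamic (Gbx2, Tcf7l2), Purkinje (Car8) and oligodendrocyte (Mbp) cells. Columns differ within each group of sire treatment.

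Members varied together between rats. Over the 561 pairs of members, with group means subtracted, 27 pairs had an adjusted permutation p under 0.05, 22 of them positive and 5 negative. The median r over the 561 pairs was 0.26. With quantile normalization 20 pairs passed, all among the 27. The pairs share libraries, depth and dissection, and the 27 are a description of these 12 libraries. No count over pairs of other genes is given here, so the 27 are not shown to be particular to glutamate genes. Grin3b against Slc1a1 was the most extreme (Pearson's r = -0.93, permutation p = 3e-05, adjusted p = 0.00561; Spearman's rho = -0.90, p = 0.00018, adjusted p = 0.0187). It was -0.86 without the 2 libraries farthest in Grin3b and -0.80 without the 3 libraries low in Chat. Grin3b was likewise opposed to Grid1 (r = -0.91, permutation p = 9e-05, adjusted p = 0.0101; rho = -0.91, p = 0.00011, adjusted p = 0.0187) and to Grm2 (r = -0.88, permutation p = 0.00019, adjusted p = 0.0156; rho = -0.91, p = 0.00011, adjusted p = 0.0187). Without the 2 farthest libraries both were -0.79, and without the 3 low in Chat they were -0.72 and -0.73.

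Grin3a, which lowers calcium entry, varied with Grm8 (r = 0.83, permutation p = 3e-05, adjusted p = 0.00561; rho = 0.90, p = 0.00014, adjusted p = 0.0187), and Grm2 with Grm8 (r = 0.79, permutation p = 0.00022, adjusted p = 0.0156; rho = 0.82, p = 0.002, adjusted p = 0.0578). Both were 0.74 without the 2 farthest libraries. Without morphine-sired 2, the lowest in Grm8, they were 0.74 and 0.72. Grik2 varied with Grik3 (r = 0.85, permutation p = 0.00024, adjusted p = 0.0156; rho = 0.73, p = 0.00895, adjusted p = 0.0984), with r = 0.66 without the 2 farthest libraries. Grik2 with Grm5 (r = 0.89, permutation p = 3e-05, adjusted p = 0.00561; rho = 0.87, p = 0.0003, adjusted p = 0.0187) rests on the gene sum of Grm5, since with shared-junction transcripts r was 0.26 (permutation p = 0.422).

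The astrocyte pair Slc1a3 and Glud1 were high and low in the same libraries (r = 0.93, permutation p = 6e-05, adjusted p = 0.00841; rho = 0.83, p = 0.00165, adjusted p = 0.0578). The r was 0.86 without the 2 libraries farthest in Slc1a3 and 0.82 without morphine-sired 2, which was lowest in both genes. Slc17a6 and Slc17a8 were opposed (r = -0.85, permutation p = 0.00048, adjusted p = 0.0192; rho = -0.73, p = 0.00863, adjusted p = 0.0968), with r = -0.64 without the 2 farthest libraries. The most abundant 2 members of the other families were weaker: r was 0.44 for Gria1 and Gria4 (permutation p = 0.158, adjusted p = 0.415; rho = 0.49, p = 0.111), 0.69 for Grin1 and Grin2c (permutation p = 0.0119, adjusted p = 0.105; rho = 0.59, p = 0.0479), and 0.76 for Slc1a2 and Slc1a3 (permutation p = 0.0154, adjusted p = 0.116; rho = 0.37, p = 0.235). For that last pair r was 0.15 without the 2 libraries farthest in Slc1a2 and 0.29 without morphine-sired 2.

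The promoter windows of Slc1a3 and Glud1, which varied together, and of Slc17a6 and Slc17a8, which were opposed, are shown to set these genes' start sites beside their levels. Each window holds 250 bases before and 50 after the start, 5′ to 3′ on the gene's strand, from RefSeq on GRCr8, which is not the build of the deposited files. Capitals mark the GC box (GGGCGG) and the core of the cAMP response element (TGACG), searched on both strands; the motifs do not overlap.
Slc1a3 (chr2:59557759-59558058, minus strand): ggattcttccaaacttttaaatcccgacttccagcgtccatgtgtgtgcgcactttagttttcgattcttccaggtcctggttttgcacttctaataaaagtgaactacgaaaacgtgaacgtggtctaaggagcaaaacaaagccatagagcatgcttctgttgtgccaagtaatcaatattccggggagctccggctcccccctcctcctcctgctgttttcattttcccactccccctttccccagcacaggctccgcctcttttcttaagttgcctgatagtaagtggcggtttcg
Glud1 (chr16:9646319-9646618, plus strand): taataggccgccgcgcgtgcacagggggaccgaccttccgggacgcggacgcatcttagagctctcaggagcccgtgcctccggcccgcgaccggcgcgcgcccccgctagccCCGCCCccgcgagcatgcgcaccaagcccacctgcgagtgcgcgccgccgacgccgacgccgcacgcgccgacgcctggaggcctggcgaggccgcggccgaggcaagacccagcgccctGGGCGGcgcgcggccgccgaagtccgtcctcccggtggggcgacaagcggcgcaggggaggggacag
Slc17a6 (chr1:110348197-110348496, plus strand): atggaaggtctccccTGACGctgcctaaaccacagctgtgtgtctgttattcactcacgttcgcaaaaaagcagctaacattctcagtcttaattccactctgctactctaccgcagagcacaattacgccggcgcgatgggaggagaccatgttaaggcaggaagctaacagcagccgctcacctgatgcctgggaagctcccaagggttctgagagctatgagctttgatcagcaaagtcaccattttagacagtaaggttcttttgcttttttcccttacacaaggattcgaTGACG
Slc17a8 (chr7:25935361-25935660, minus strand): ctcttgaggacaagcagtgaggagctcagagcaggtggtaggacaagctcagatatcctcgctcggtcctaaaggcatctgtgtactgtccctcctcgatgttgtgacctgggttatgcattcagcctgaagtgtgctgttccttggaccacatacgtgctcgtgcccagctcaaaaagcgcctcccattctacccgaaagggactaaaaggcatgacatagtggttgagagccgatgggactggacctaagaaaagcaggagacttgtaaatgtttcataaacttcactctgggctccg
The Glud1 window holds 2 GC boxes and 78.0% G and C, and the other 3 hold 0 GC boxes and 48.3% to 51.3% G and C. The core TGACG stands 2 times in the Slc17a6 window, the second at its end, and 0 times in the other 3. A match is a description of letters and not a site. Of 33469 windows of the same length, 33.1% held a GC box and 21.2% the core. The table matched 23 of the 34 members with 26 windows, of which 9 held a GC box and 3 the core.

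The rest of the glutamate synapse was looked up in 3 lists of related genes, of which 75 of 80 were tested, 0 were called and 0 had an unadjusted p under 0.05 in limma. Other family members and auxiliary subunits (24 of 28 tested) had a median log2 difference of -0.02, postsynaptic density and trafficking genes (29 of 30) -0.01, and genes of glutamate metabolism and precursor transport (22 of 22) 0.00, beside -0.00 for all genes. In the first list Shisa6, an AMPA receptor partner, averaged 6.62 ± 1.45 TPM in morphine-sired and 8.68 ± 3.08 TPM in saline-sired rats, and Cbln1, the cerebellin bridging presynaptic neurexin and delta receptors, 82.9 ± 39.1 TPM in morphine-sired and 106 ± 37.1 TPM in saline-sired rats. Neto2, a kainate receptor partner, and Cacng3, a relative of Cacng2, completed the 4 smallest p of that list (log2 differences -0.17 ± 0.14 and -0.10 ± 0.08).

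Among scaffold genes Shank1 had the smallest p (0.0596, log2 difference 1.48 ± 0.72), with 76.1 TPM in morphine-sired 4, up to 12.6 TPM in the other morphine-sired libraries and 0.973 to 4.24 TPM in saline-sired libraries. The mean rests on morphine-sired 4, in a locus of several symbols where the value is uncertain. The scaffolds Dlg1 and Dlg3 and the AMPA receptor anchor Grip2 differed by -0.07 ± 0.05, 0.19 ± 0.13 and -0.14 ± 0.09 on the log2 scale. In the third list Slc38a3, the glutamine exporter of astrocytes, averaged 79.7 ± 11.3 TPM in morphine-sired and 72.4 ± 5.09 TPM in saline-sired rats, and Slc25a18, a mitochondrial glutamate carrier, 123 ± 24.1 TPM in morphine-sired and 107 ± 11.3 TPM in saline-sired rats. Aldh18a1, an enzyme of proline synthesis from glutamate, and Slc3a2, a subunit of amino acid exchangers, differed by 0.06 ± 0.06 and 0.03 ± 0.04.

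The cell type markers also differed in which way they leaned, in 15 lists with 0 genes called, while 49.2% of all genes tested had the higher mean of log2(TPM + 1) in morphine-sired rats. Of 12 neuronal markers, the mean was higher in morphine-sired rats for 2 and lower for 10, 2 of these with an unadjusted p under 0.05 (1.72% of all genes were lower at that level). The summed level of the neuronal markers was 7353 to 11069 TPM in morphine-sired and 6989 to 10083 TPM in saline-sired libraries. The mean was higher in morphine-sired rats for 0 of 10 serotonergic, 0 of 7 forebrain, 1 of 8 cerebellar, 2 of 8 GABA neuron, 3 of 6 catecholamine, 4 of 5 cholinergic and oculomotor and 8 of 10 thalamic and collicular markers, and 0 of these had an unadjusted p under 0.05.

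Of 12 astrocyte markers, the mean was higher in morphine-sired rats for 10, and 0 had an unadjusted p under 0.05, with a summed level of 7286 to 8021 TPM in morphine-sired and 6814 to 7791 TPM in saline-sired libraries. It was higher in morphine-sired rats for 2 of 12 oligodendrocyte, 7 of 8 oligodendrocyte precursor and 7 of 7 ependymal markers, with 0 at an unadjusted p under 0.05, and for 2 of 9 endothelial and mural markers, with 1 lower at that level. Of the 11 microglial markers tested, 9 averaged more in morphine-sired than in saline-sired rats, 4 of them with an unadjusted p under 0.05, as did 9 of 10 choroid plexus markers, 3 of them with an unadjusted p under 0.05. Over all genes tested, 1.5% were higher and 1.72% lower at that level. The choroid plexus score (centred mean log2 level) was 1.65 in morphine-sired 2 and -0.51 to 0.26 in the other morphine-sired libraries. It was -0.75 to 0.88 in saline-sired libraries. The part of these markers in the levels of the glutamate genes was tested only for the serotonergic and cholinergic scores.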

How the data were processed

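PolyA RNA of periaqueductal grey was sequenced in 12 rats. The submitters' processing notes list build Rnor_6.0, the aligner HISAT2 2.2.0, Trimmomatic 0.39 for trimming, StringTie 2.1.2, and also DESeq2 1.28.1, SAMtools 1.11 and FastQC 0.11.9, while per the file headers the deposited transcript files were written by StringTie 1.3.6. Per the file headers, the authors' files give coverage and TPM (relative to the library total) for 76232 transcripts, 35169 of them assembled. Pairing and strandedness of the reads: not given in the sources used here. Whether genes that overlap on opposite strands were told apart is therefore not known here.

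TPM was summed per gene and locus. Assembled transcripts were added where the locus has 1 symbol, which leaves 6 members with annotated transcripts alone, and their sums low and uncertain. As an alternative chosen after seeing the data, assembled transcripts that share a splice junction were added to them. Leaving out the libraries with Chat under 5 TPM was also chosen after seeing the data. In 14 members assembled transcripts held most of the level. The 24540 genes that averaged 0.5 TPM or more entered limma 3.58.1 (R 4.3.3, two-sided, with an intensity trend), on log2(TPM + 1), a scale that makes changes of low genes look smaller. The threshold was a Benjamini-Hochberg adjusted p of 0.05. Reads for limma-voom were estimated from coverage at 135 bases a read, a length read off the step size of low coverages. Pairs of members used 100000 permutations of log2(TPM + 1) with group means subtracted. The rest used Python 3.11.15 (scipy 1.17.1, pandas 2.3.3, numpy 2.4.6, matplotlib 3.10.9). The limma step was first tested on simulated data.

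All members are named. Values of every library are given for the most abundant and the smallest-p member of each role and the 6 most variable members, and for Grin3b, chosen after its values were seen, as were Chat and Gbx2 among the markers. The members and lists were chosen with earlier results of these data known.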

Additional observations from a re-analysis of the deposited data

Results flagged for a closer look

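In the groups of 6 libraries, 9 values stood apart from the rest of their own group by Dixon's test, where chance gives about 1 in 20 groups, or 3.4 of the 68 groups looked at. Morphine-sired 2 gave 5 of them: Gria2 at 34.4 TPM (45.1 to 50.5 in the other 5 morphine-sired libraries), Grm8 at 5.58 TPM (13.7 to 14.9), Slc17a8 at 4.89 TPM (0.716 to 1.75), Slc1a3 at 145 TPM (204 to 236) and Glud1 at 318 TPM (397 to 435). This library also had the highest Ttr (1756 TPM) and the lowest Gbx2 (0.583 TPM) of the 12. Grin2b was at 17.3 TPM in morphine-sired 1, against 7.85 to 10.9 TPM in the others of its group. In saline-sired rats, saline-sired 2 stood apart with Grm5 at 6.60 TPM (0.412 to 2.37 in the other 5) and Slc17a8 at 18.7 TPM (0.751 to 6.58), and saline-sired 1 with Glud1 at 436 TPM (364 to 386). The Grm5 and Gria2 values rest on gene sums that leave out assembled transcripts. With shared-junction transcripts Gria2 was at 39.4 TPM in morphine-sired 2 and at 50.2 to 57.4 TPM in the other 5 morphine-sired libraries. Grm5 was at 19.8 TPM in saline-sired 2 and at 22.1 to 31.0 TPM in the other 5 saline-sired libraries. The counts of 9 and 5 hold for the gene sums alone. The part of dissection or library quality in these values was not tested.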

How the results depend on the processing

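Across 24 alternatives, among them other pseudocounts, filters, scalings, limma-voom, library weights, marker scores as terms and each library left out, 0 members and 0 related genes were called by limma, with 1 to 4 members at an unadjusted p under 0.05 and a smallest adjusted p of 0.755 without morphine-sired 2. Of the log2 differences that exceeded 1 SE, a few turned round, each to a value smaller than its own SE: Grin2a gave 0.13 with annotated transcripts only, Grm5 0.0349 and Slc17a8 0.0908 with serotonergic and cholinergic scores, and Gria3 -0.0856 with shared-junction transcripts. The Gria1 exon share difference was -2.78 percentage points with annotated transcripts only and between -0.0928 (without morphine-sired 3) and 0.995 with each library left out. That of Gria4 lay between 7.29 and 12.7 percentage points, with an exact permutation p of 0.0411 without morphine-sired 3, 0.0476 without saline-sired 5 and 0.0498 without saline-sired 3 or 6, against 0.0649 with all libraries. Pairs past the threshold numbered 2 with annotated transcripts only and 45 with shared-junction transcripts, of which 25 were among the 27. The order of levels had a Spearman correlation with the main one of 0.73 with annotated transcripts only and 0.87 with shared-junction transcripts; the cause was not tested. No paired analysis was possible because the replicate numbers were given in accession order and pair no rats. Genes near 1 TPM rest on few reads per length, and the part of depth in their spread was not tested.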
